A study of Mus musculus with 6 samples.

Results

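DNA replication and nucleotide synthesis genes encode the proteins that copy the genome in S phase and make the deoxynucleotides it is built from. A list of 42 such genes was followed in the gastric mucosa of mice lacking A4gnt. Members were the probes whose gene name on the array is one of the 42 and whose signal was well above background on at least 1 of 6 arrays. That rule kept 41 genes (48 of 50 probes) among 31689 genes and unnamed transcripts. Orc6, which the array carries under the older name Orc6l, fell outside it and is described separately. Of the 41 genes, 39 were well above background on all 6 arrays and entered the test, which needed 3 such arrays. The exceptions were Pola2 and Ccne2.

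RNA came from C57BL/6J mice of 5, 10 and 50 weeks that were either A4gnt null or wild type, with 1 mouse and 1 one-colour Agilent array for each genotype and age. The 3 null arrays were therefore set against 3 wild-type arrays, paired by age. A4gnt encodes the glycosyltransferase that adds terminal N-acetylglucosamine to the mucin of gland mucous cells. The labels name no other allele or treatment in either group, and no promoter or cell type that would limit the deletion. Each array's level is the log2 of the processed signal minus the log2 of that array's 75th percentile, so a level of 0 is the 75th percentile. The A4gnt probe read 2.30, 2.94 and 2.11 units in null mucosa at 5, 10 and 50 weeks, none of it well above background, against 165, 325 and 264 units in wild-type mucosa. All 3 null arrays lay on one slide and all 3 wild-type arrays on another, so slide and genotype cannot be told apart. At a single age 1 mouse stood against 1 mouse, and no p-value applies there. Over the 3 ages the precision is limited by the number of arrays.

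Replication is prepared in G1, when the origin recognition complex, Cdc6 and Cdt1 load the Mcm helicase onto DNA. At S-phase entry, when cyclin E and E2F transcription factors are active, the helicase joins Cdc45 and the GINS complex and unwinds the origin. Primase and polymerase alpha then start each strand, the clamp Pcna and the polymerases delta and epsilon extend it, and Fen1 and Lig1 join the lagging strand, while ribonucleotide reductase, thymidylate synthase and thymidine kinase supply deoxynucleotides. In the stomach, dividing cells lie mostly in the isthmus of the gland, between the surface mucous cells and the neck and base.

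Many of these genes are known E2F targets, so their promoters were searched for letters that E2F proteins bind. The RefSeq promoters used here (build GRCm38.p6) run from 250 bases before to 50 after the start of a gene, 300 bases in all, and 34 of the 41 members had one. Mcm4, Gins1, Gins2, Rfc2, Prim2, Pole and Ccne2 had none in the table. The letters searched were TTTCCCGC, TTTCGCGC, TTTGGCGC and TTTGCCGC on both strands, and matches may overlap each other. They were found in 13 of 34 members (38.2%), against 704 of 27025 genes with a promoter (2.605%) and 476 of the 11110 tested genes with one (4.28%). Among genes of mitosis, the most closely related list, 1 of 26 (3.85%) held them. In 8 members a match lay ahead of the start of the gene, and the stretches below are shown because they carry those matches, in capitals, with 30 bases before and after where the sequence ahead of the start allows. Each is printed 5′ to 3′ on the strand of its gene.
Mcm5: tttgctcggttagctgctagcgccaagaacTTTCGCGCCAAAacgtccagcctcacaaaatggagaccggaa
Mcm6: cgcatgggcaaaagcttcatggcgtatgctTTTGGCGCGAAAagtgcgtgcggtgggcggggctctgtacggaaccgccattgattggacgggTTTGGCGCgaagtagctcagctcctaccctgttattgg
Mcm7: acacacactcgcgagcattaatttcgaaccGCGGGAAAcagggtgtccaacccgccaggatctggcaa
Cdc6: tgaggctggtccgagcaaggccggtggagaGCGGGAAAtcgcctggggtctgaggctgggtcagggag
Gins3: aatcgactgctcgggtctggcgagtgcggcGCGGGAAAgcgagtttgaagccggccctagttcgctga
Rfc3: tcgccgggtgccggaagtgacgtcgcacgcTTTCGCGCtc
Pola1: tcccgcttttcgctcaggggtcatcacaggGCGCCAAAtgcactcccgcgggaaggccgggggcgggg
Uhrf1: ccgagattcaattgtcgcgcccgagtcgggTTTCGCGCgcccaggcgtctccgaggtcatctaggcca
These stretches lie at chr8:75109326-75109397 (plus strand) for Mcm5, chr1:128359715-128359845 (minus) for Mcm6 and chr11:98907983-98908050 (plus) for Cdc6. Those of Gins3, Pola1 and Uhrf1 lie at chr8:95633488-95633555 (plus), chrX:93632256-93632323 (minus) and chr17:56304098-56304165 (plus). Those of Mcm7 and Rfc3 lie at chr5:138172011-138172078 and chr5:151651209-151651248 (both minus). In Mcm5 and in the first match of Mcm6, 2 matches on opposite strands overlap each other.

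Other letters were distributed differently. CCAAT, the box bound by the factor NF-Y, was found on either strand in 19 of 34 members (55.9%), 20 of 26 mitosis genes (76.9%) and 41.1% of all genes with a promoter. TTTGAA, the core of the cell-cycle element called CHR, was found in 3 of 34 members (8.82%), 19 of 26 mitosis genes (73.1%) and 20.2% of all genes with a promoter. The 13 members with E2F letters had a median genotype difference of 0.37, against 0.57 for the 20 tested members whose promoter lacked them. A match is a description of these letters and not a measured site.

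Replication genes were higher in A4gnt null mucosa at nearly every age, and the difference was largest at 10 weeks. Of the 39 tested members, 31 were higher in the null mouse at all 3 ages and 0 were lower at all 3. Of all 17860 tested genes, 4668 (26.1%) were higher at all 3 and 4668 were lower at all 3. The median difference, null minus wild type, was 0.46 on the log2 scale (1.37-fold), with single members between −0.05 for Tyms and 1.03 for Ccne1. The median of all tested genes was −0.03. No member passed the threshold of 0.05 in limma after Benjamini-Hochberg adjustment over all tested genes (adjusted p 0.138 to 0.902), and neither did any other gene (0%). At an unadjusted p under 0.05, 16 of 39 members were higher and 0 lower. Of all 17860 tested genes, 1966 (11%) were higher and 2250 lower at that level. Leaving out the 10-week mice gave a count of 3 and a median difference of 0.26, and leaving out those of 5 weeks gave a count of 8. In RNA from whole mucosa, more dividing cells and more RNA per cell cannot be told apart.

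**Figure D1:**
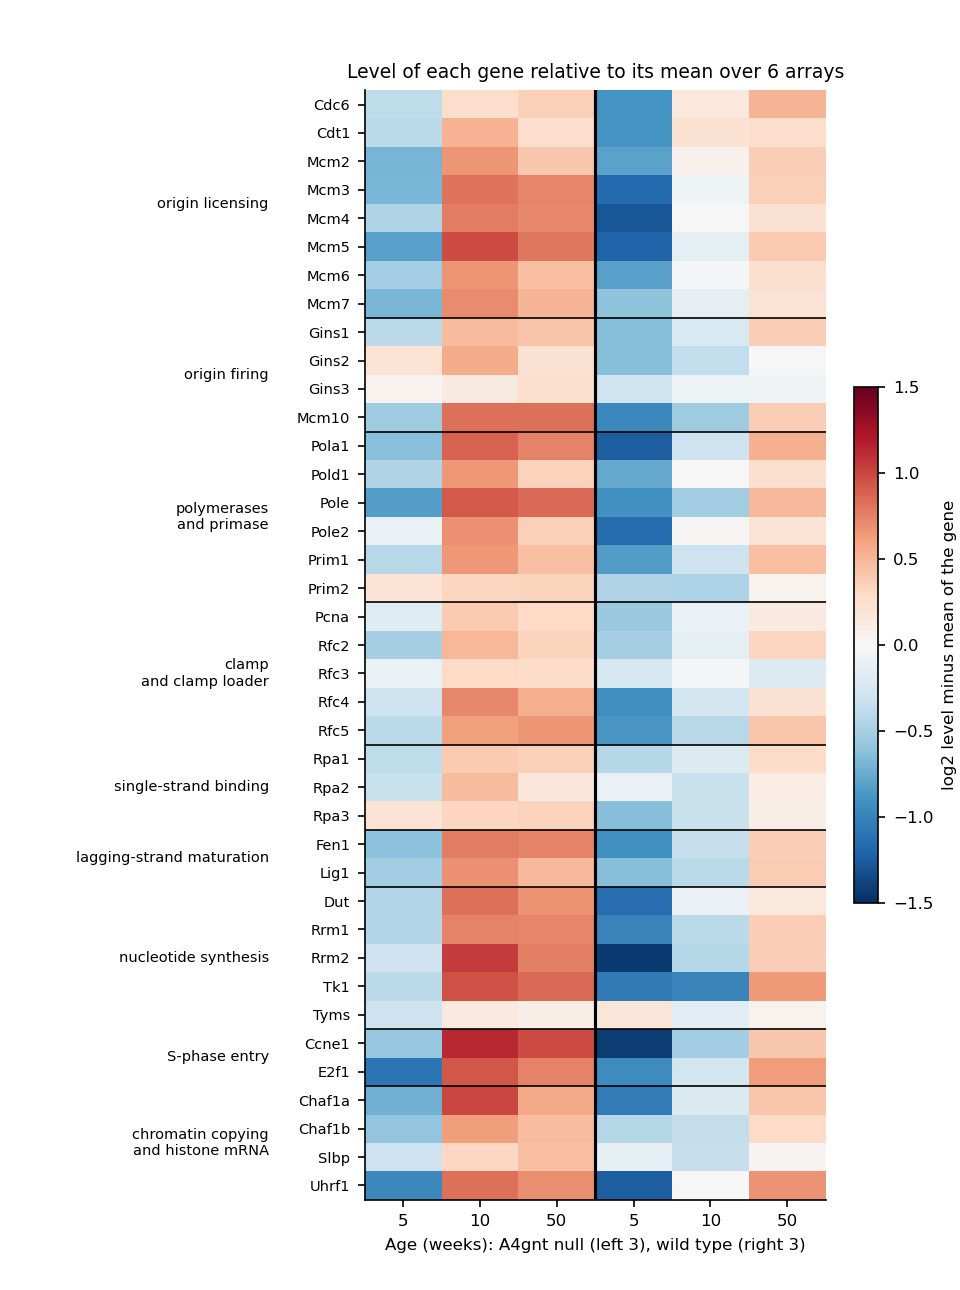
Levels of the 39 tested replication genes on each array, as log2 level minus the mean of the gene over the 6 arrays. Rows are grouped by role, with the 3 A4gnt null arrays on the left and the 3 wild-type arrays on the right, each at 5, 10 and 50 weeks. The null arrays of 10 and 50 weeks are the reddest columns and the wild-type array of 5 weeks the bluest.

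Genes that are often used as references for expression were also somewhat higher. The 12 on the list had a median difference of 0.26, with 6 higher at all 3 ages. Of the 12, 4 were higher at an unadjusted p under 0.05, among them Gusb (0.55 ± 0.13) and Hprt (0.50 ± 0.15). Here and below, ± is the moderated SE of limma, which draws a gene's variance towards a value common to all tested genes. With each array centred on these 12 genes, the median of the replication genes was 0.26, that of all genes −0.22, and 18 of 39 members were higher at all 3 ages. Centred on the median of each array, the median of all genes moved to 0.13 and that of the members to 0.62.

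Origin licensing genes held 8 tested members, of which 5 were higher in null mucosa at all 3 ages and 3 at an unadjusted p under 0.05. Mcm4, a subunit of the helicase, had levels of 1.04, 2.25 and 2.21 in null mucosa at 5, 10 and 50 weeks, against 0.22, 1.49 and 1.71 in wild-type mucosa. The null array was the higher one at each age, by 0.82, 0.77 and 0.50. The mean difference was 0.70 ± 0.13 (moderated SE, n = 3 pairs), or 1.62-fold. Its probe lies at chr16:15624372-15624431 on the minus strand of build mm9, per the file headers. Mcm3, another subunit, read 1.46, 2.96 and 2.87 in null and 0.98, 2.08 and 2.50 in wild-type mucosa (0.58 ± 0.15). These are the mean difference over 3 pairs and its moderated SE, as for the genes that follow. Both probes of Mcm3 gave a positive difference at every age, with means of 0.58 and 0.64. Mcm5 had 0.38, 2.18 and 1.99 in null mucosa and −0.01, 1.05 and 1.59 in wild-type mucosa (0.64 ± 0.20), with the 10-week pair 2.19-fold apart. For each of these 3 subunits the spread with age was wider than the gap between genotypes, so the groups overlapped.

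The other helicase subunits differed less. Mcm6 had a mean difference of 0.40 ± 0.15, Mcm7 of 0.36 ± 0.22 and Mcm2 of 0.24 ± 0.16 (moderated SE). At 5 weeks Mcm7 was the only subunit that was not higher in the null mouse (−0.08). Cdt1 and Cdc6, which load the helicase, differed by 0.26 ± 0.15 and 0.16 ± 0.17, and like Mcm4 both had their widest gap at 5 weeks. Cdc6 read −2.66, −2.01 and −1.92 in null and −3.17, −2.12 and −1.77 in wild-type mucosa. It was higher by 0.51 in the null mouse of 5 weeks, by 0.11 at 10 weeks, and lower by −0.15 at 50 weeks. Its second probe read −0.14, 0.25 and 0.07 at the same ages, so the sign at 5 and 50 weeks depended on the probe. Orc6, a subunit of the origin recognition complex measured under its older name, had levels of 0.32, 1.11 and 1.20 in null and −0.17, 0.38 and 0.72 in wild-type mucosa (0.57 ± 0.12).

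Among the 4 origin firing genes, all were higher at all 3 ages. Gins2 and Gins3, subunits of the GINS complex that completes the active helicase, were among the 4 members whose 3 null arrays all lay above all 3 wild-type arrays. The others were Prim2 and Rpa3. That was 4 of 39 members, a share not above the 12.5% of all tested genes that were higher without overlap. Gins2 read −1.85, −1.52 and −1.84 in null mucosa and −2.71, −2.44 and −2.07 in wild-type mucosa (0.67 ± 0.19). Gins3 read 3.91, 3.99 and 4.09 in null and 3.56, 3.78 and 3.80 in wild-type mucosa, a smaller but even difference (0.28 ± 0.11). Mcm10, which helps to activate the helicase, had 0.51, 1.87 and 1.87 in null and 0.07, 0.50 and 1.41 in wild-type mucosa (0.76 ± 0.24). Its gap was 1.37 at 10 weeks and only 0.44 and 0.46 at 5 and 50 weeks. Gins1 differed by 0.33 ± 0.17.

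The polymerases and primase had 6 tested members, all higher at all 3 ages and 3 at an unadjusted p under 0.05. Prim2, the large subunit of primase, stayed nearly level with age in null mucosa (1.24, 1.35 and 1.36) and read 0.58, 0.57 and 1.09 in wild-type mucosa (0.57 ± 0.15). Pola1, the catalytic subunit of polymerase alpha, read −1.98, −0.46 and −0.60 in null and −2.58, −1.66 and −0.81 in wild-type mucosa (0.67 ± 0.23). Here age moved the levels further than genotype. Pole2, an accessory subunit of polymerase epsilon, was a dim probe with −2.86, −2.08 and −2.41 in null and −3.92, −2.75 and −2.56 in wild-type mucosa (0.63 ± 0.21), and 5 weeks was its widest gap (1.06). The catalytic subunits Pole and Pold1 differed by 0.63 ± 0.31 and 0.35 ± 0.15, and the small primase subunit Prim1 by 0.46 ± 0.22. Pola2, the second subunit of polymerase alpha, was well above background only on the null arrays of 10 and 50 weeks. Its 10-week level in null mucosa exceeded that in wild-type mucosa at least 1.88-fold, a bound set by the probe's own signal on the wild-type array, which was higher than the lowest signal called above background there. At 50 weeks no fold can be given.

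For the clamp and its loader, 5 of 5 members were higher at all 3 ages. Pcna, the sliding clamp, read 2.57, 3.15 and 3.05 in null mucosa and 2.19, 2.65 and 2.90 in wild-type mucosa (0.34 ± 0.13), a difference below the median of the members. Rfc4, a loader subunit, had 1.03, 2.06 and 1.88 in null and 0.42, 1.06 and 1.57 in wild-type mucosa (0.64 ± 0.18). Rfc5 had 0.91, 1.94 and 1.98 in null and 0.45, 0.90 and 1.74 in wild-type mucosa (0.58 ± 0.20). Both loader genes were about 2-fold apart at 10 weeks and closest at 50 weeks. Rfc3 (0.32 ± 0.13) was the only member of the 39 with its widest gap at 50 weeks (0.49), and Rfc2 (0.22 ± 0.18) was level between the genotypes at 5 and 50 weeks, with 0.00 and 0.02.

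The 3 subunits of replication protein A, which coats single-stranded DNA, did not share one pattern. Rpa3 was flat with age in null mucosa, at 1.30, 1.41 and 1.43, while wild-type mucosa read 0.45, 0.75 and 1.17 (0.59 ± 0.16). Rpa1 had 2.36, 3.13 and 3.10 in null and 2.31, 2.53 and 3.01 in wild-type mucosa, with its widest gap at 10 weeks (0.60) and little at 5 and 50 weeks (0.05 and 0.09). Rpa2 read −1.70, −0.89 and −1.19 in null and −1.46, −1.70 and −1.25 in wild-type mucosa, lower by −0.24 in the null mouse of 5 weeks and higher by 0.81 at 10 weeks. The mean differences were 0.25 ± 0.16 for Rpa1 and 0.21 ± 0.24 for Rpa2. Lagging-strand genes were closer to each other. Fen1, which trims the primer flap, read 1.19, 2.57 and 2.55 in null and 0.90, 1.46 and 2.17 in wild-type mucosa (0.59 ± 0.21). Lig1, which seals the nick, had 1.70, 2.91 and 2.71 in null and 1.59, 1.82 and 2.61 in wild-type mucosa (0.43 ± 0.25), a gap of 1.09 at 10 weeks and of 0.11 and 0.10 at the other ages.

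Among nucleotide synthesis genes, 4 of 5 were higher at all 3 ages, and Rrm2 and Tk1 had the largest mean differences of all members after Ccne1. Rrm2, the subunit of ribonucleotide reductase that carries its radical and sets its activity in S phase, read 1.60, 2.96 and 2.67 in null mucosa and 0.48, 1.48 and 2.28 in wild-type mucosa. The null mouse was 2.18-fold higher at 5 weeks and 2.80-fold at 10 weeks, and the mean difference was 1.0 ± 0.25. Rrm1, the partner subunit, read 0.87, 2.05 and 2.04 in null and 0.31, 0.91 and 1.68 in wild-type mucosa (0.69 ± 0.20). Dut, which breaks down dUTP and so keeps uracil out of DNA, had −0.11, 1.16 and 1.0 in null and −0.81, 0.24 and 0.49 in wild-type mucosa (0.71 ± 0.14), an even gap of 0.51 to 0.92. Tk1, thymidine kinase, is named after its values were seen because its 10-week pair lay furthest apart of the 39 tested members, at 3.85-fold. It had 1.59, 2.94 and 2.83 in null and 0.92, 0.99 and 2.62 in wild-type mucosa (0.94 ± 0.38). Wild-type Tk1 was thus as low at 10 weeks as at 5 weeks.

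Tyms, thymidylate synthase, was the only member whose mean difference was below 0 (−0.05 ± 0.20). Its probe is dim, with 16.7 to 35.3 units over the 6 arrays, and read −3.92, −3.46 and −3.51 in null mucosa and −3.43, −3.77 and −3.56 in wild-type mucosa. Quantile normalization, median centring and leaving out the 5-week pair turned the sign. A probe for its pseudogene Tyms-ps, which is no member, read 0.31, 1.32 and 1.28 in null and −0.16, 0.01 and 1.07 in wild-type mucosa (0.67 ± 0.26). Transcripts of the gene and of its near-identical copy may bind either probe, so the level of Tyms is uncertain.

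Ccne1, cyclin E1, which drives entry into S phase, had the largest mean difference of the members. Its levels were 0.09, 1.79 and 1.64 in null mucosa at 5, 10 and 50 weeks, against −0.77, 0.13 and 1.06 in wild-type mucosa, and the difference was 1.03 ± 0.25 (2.05-fold). Its second probe stayed at background on all 6 arrays. E2f1, the transcription factor, read −2.16, −0.14 and −0.32 in null and −2.01, −1.34 and −0.44 in wild-type mucosa. The genotypes were close at 5 and 50 weeks and 2.29-fold apart at 10 weeks, and the mean difference was 0.39 ± 0.31. Ccne2, cyclin E2, exceeded background on a single array, that of the wild-type mouse of 10 weeks. The null mouse of that age lay at least 3.41-fold lower.

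Genes for copying chromatin gave smaller means. Chaf1a, the large subunit of the chromatin assembly factor, read −1.78, −0.06 and −0.49 in null and −2.10, −1.27 and −0.64 in wild-type mucosa (0.56 ± 0.25). Uhrf1, which brings the maintenance DNA methyltransferase to new DNA, had 0.35, 2.15 and 2.02 in null and 0.09, 1.33 and 1.99 in wild-type mucosa (0.37 ± 0.20), with the genotypes level at 50 weeks. Slbp, which binds the stem-loop of histone mRNA, had −2.76, −2.14 and −2.0 in null and −2.59, −2.79 and −2.41 in wild-type mucosa (0.30 ± 0.20). At 5 weeks the 2 probes of Slbp read −0.17 and 0.03, so no sign can be given there. The second probe of Uhrf1 was not well above background at 5 weeks. Chaf1b differed by 0.33 ± 0.26.

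**Figure D2:**
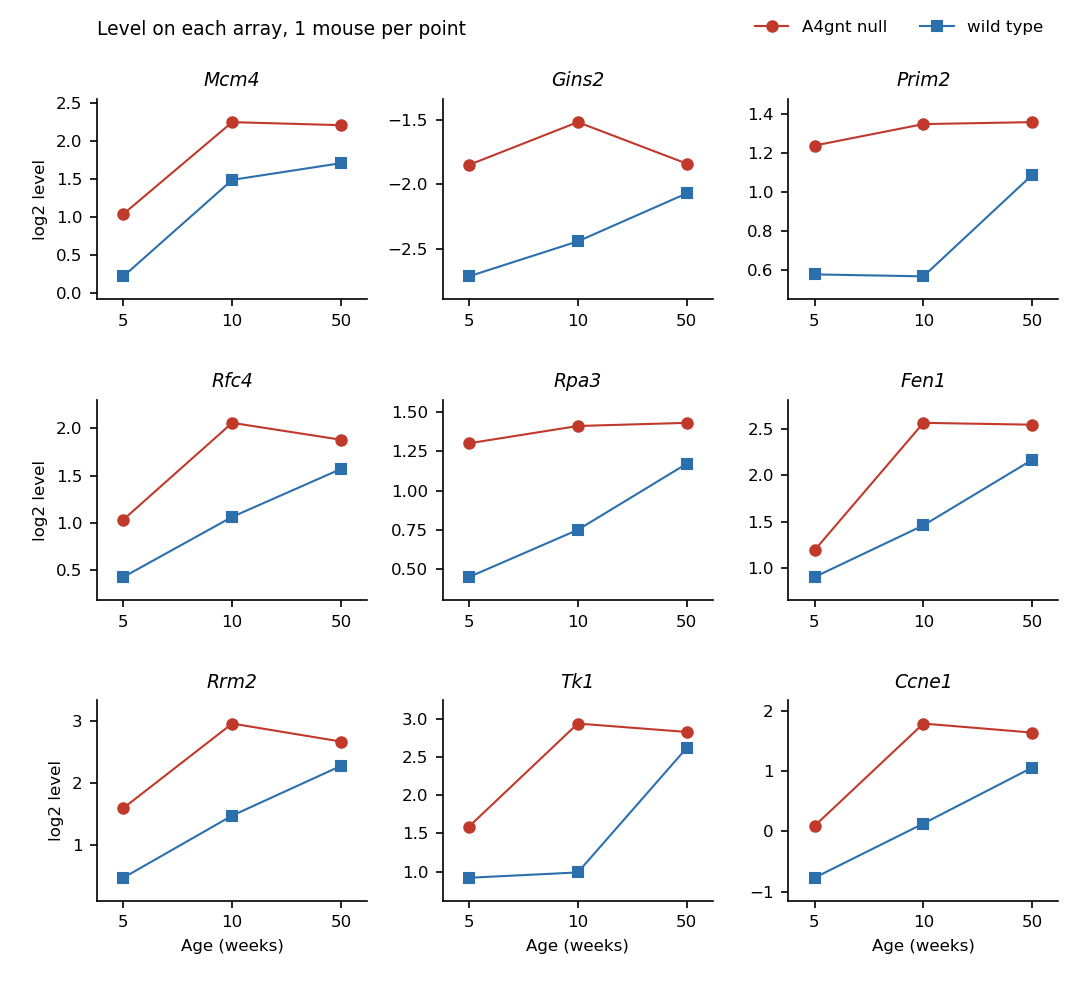
Log2 level of 9 members on each array against age in weeks, with 1 mouse per point, A4gnt null in red circles and wild type in blue squares. The gap of Mcm4 is 0.82, 0.77 and 0.50 at 5, 10 and 50 weeks, Prim2 and Rpa3 are flat in null mucosa, and Tk1 in wild-type mucosa reads 0.92, 0.99 and 2.62.

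Most members had their widest gap between genotypes at 10 weeks. At 5 weeks the median difference was 0.38 and 33 of 39 members were higher in the null mouse. At 10 weeks it was 0.86, with 39 of 39 higher, and at 50 weeks 0.22, with 37 of 39 higher. The medians of all tested genes at these ages were −0.01, −0.01 and 0.00. Of the 39 members, 31 had their widest gap in either direction at 10 weeks, 7 at 5 weeks and 1 at 50 weeks. Of all 17860 tested genes, 6675 had it at 10 weeks, 7447 at 5 weeks and 3738 at 50 weeks. At 2-fold, 2 members were higher in null mucosa at 5 weeks (Rrm2 and Pole2), 14 at 10 weeks and 0 at 50 weeks, against 3.55%, 4.3% and 2% of the genes above background on both arrays. The test of a trend of the genotype difference with log2 age passed for 0 members and 0 genes in all (0%). At an unadjusted p under 0.05 it took in 0 members (smallest 0.149) and 2.83% of genes. A trend in one direction does not describe a gap that is widest at the middle age, and that shape was not tested.

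**Figure D3:**
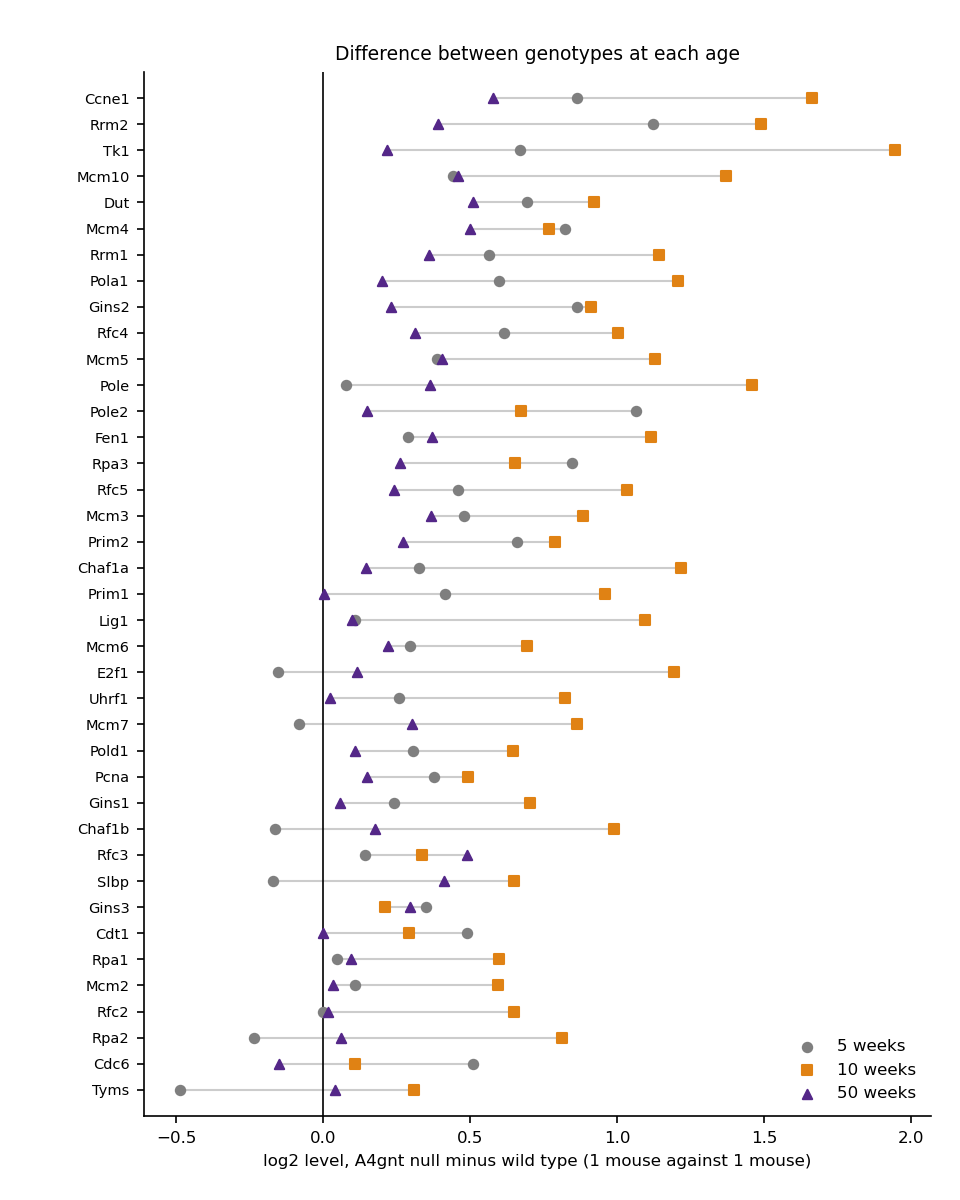
Log2 difference, A4gnt null minus wild type, of the 39 tested members at 5 weeks (grey circles), 10 weeks (orange squares) and 50 weeks (purple triangles), ordered by mean difference. The 10-week values run from 0.11 to 1.95, and 31 of 39 members have their widest gap there, against 6675 of all 17860 tested genes.

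Most members read higher on the older arrays, and the medians took another course in each genotype. Over both genotypes, the median of the members was 0.89 higher at 10 than at 5 weeks and 1.02 higher at 50 than at 5 weeks, and 39 of 39 members had a positive difference in both contrasts. The median of all genes was −0.06 and −0.04. In the F test for age, 0 members passed after adjustment (smallest 0.353) and 0.0112% of all genes did. At an unadjusted p under 0.05, 28 of 39 members were higher at 50 than at 5 weeks, where 5.27% of genes were. In 27 of 39 members all 4 arrays of 10 and 50 weeks lay above both arrays of 5 weeks, as they did in 7.37% of genes. Uhrf1 (1.79), E2f1 (1.70), Ccne1 (1.69) and Mcm5 (1.60) had the largest differences between 50 and 5 weeks. Tyms (0.14), Rfc3 (0.20), Gins3 (0.21) and Prim2 (0.31) had the smallest.

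In null mucosa the members had a median change of 1.18 between 5 and 10 weeks and of −0.15 between 10 and 50 weeks, with 33 of 39 below 0 in the second step. In wild-type mucosa the same steps were 0.53 and 0.48, with 38 of 39 above 0 in the second. The second step depends on the scaling. With arrays centred on their median, the medians were 0.02 in null and 0.56 in wild-type mucosa, so the direction in null mucosa turned, and those of all genes were 0.19 and 0.12. With arrays centred on spike-in probes they were −0.42 in null and 0.14 in wild-type mucosa, and those of all genes −0.25 and −0.31. By role, licensing genes had a median change of 1.05 between 5 and 10 weeks in wild-type mucosa, against 0.34 for firing genes and 0.22 for replication protein A. All 8 licensing genes had their older arrays above both 5-week arrays, against 1 of 4 firing genes and 5 of 6 polymerase and primase genes.

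Genes of mitosis act after replication in the same cell cycle and were set beside the replication genes. Of 30 on the list 27 were tested. Their median difference was 1.26, against 0.46 for the replication genes, and 25 of 27 were higher in null mucosa at all 3 ages. By age the medians were 0.98, 2.19 and 0.50, and 10 weeks was the widest gap in 27 of 27. Cdk1, the mitotic kinase, read −0.51, 0.79 and 0.70 in null and −1.86, −1.14 and 0.03 in wild-type mucosa (1.32 ± 0.28), and Top2a, which untangles sister chromatids, differed by 1.37 ± 0.35. In wild-type mucosa, replication genes had a median change of 0.53 between 5 and 10 weeks and mitosis genes of 0.09. Between 10 and 50 weeks the same medians were 0.48 and 1.77. Of the mitosis genes, 2 of 27 had all 4 older arrays above both 5-week arrays, against 27 of 39 replication genes and 7.37% of all tested genes. Over both genotypes, mitosis genes had a median difference of 0.67 between 10 and 5 weeks, against 0.89 for replication genes. Between 50 and 5 weeks it was 1.57 for mitosis genes and 1.02 for replication genes. The lists were not tested against each other, and both come from the same 6 arrays.

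**Figure D4:**
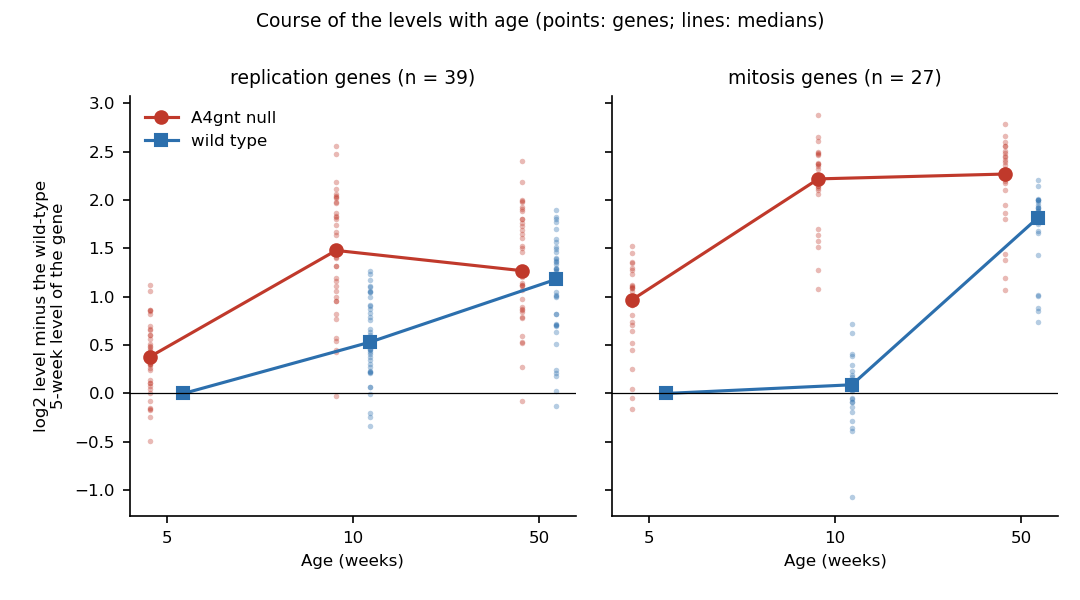
Log2 level of 39 replication genes (left) and 27 mitosis genes (right) minus its own wild-type level at 5 weeks, against age in weeks. Points are genes and lines join medians, with A4gnt null in red and wild type in blue. At 10 weeks the medians are 1.48 in null and 0.53 in wild-type mucosa for replication genes, and 2.22 and 0.09 for mitosis genes.

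Other genes of the same pathways followed less closely. Of 35 further replication genes 33 were tested, with a median of 0.28, 16 higher at all 3 ages and 1 lower at all 3, and 6 higher and 0 lower at an unadjusted p under 0.05. Among all 17860 tested genes, 4668 were higher and 4668 lower at all 3 ages. At an unadjusted p under 0.05, 1966 of them (11%) were higher and 2250 lower. Asf1b, a histone chaperone, read −0.35, 1.31 and 1.12 in null and −1.07, −0.51 and 0.77 in wild-type mucosa (0.97 ± 0.33). Rnaseh2c, a subunit of the enzyme that removes ribonucleotides from DNA, differed by 0.46 ± 0.11 and Tipin, of the fork protection complex, by 0.49 ± 0.15. The 26 further nucleotide genes, many of them in purine and one-carbon metabolism, had a median of 0.10, close to that of all genes. In that list 10 were higher and 7 lower at all 3 ages, and 5 were higher and 1 lower at an unadjusted p under 0.05. Dck, which salvages deoxycytidine, differed by 0.65 ± 0.19 and Impdh2, of guanine synthesis, by 0.48 ± 0.11. Tk2, the thymidine kinase of mitochondria, was the one lower, at −0.51 ± 0.14, opposite to Tk1.

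Of 26 further regulators of S phase 24 were tested, with a median of 0.27, and 8 were higher and 2 lower at an unadjusted p under 0.05. Among all 17860 tested genes, 1966 (11%) were higher and 2250 lower at that level. E2f7, a repressor among the E2F proteins, read −1.98, −0.51 and −0.84 in null and −3.26, −2.33 and −1.64 in wild-type mucosa (1.30 ± 0.23). Skp2, which marks the inhibitor p27 for breakdown, differed by 0.65 ± 0.12. Rbl1, a pocket protein that binds E2F, differed by 0.87 ± 0.24, while its relative Rbl2 differed by −0.44 ± 0.12. None of these genes passed the adjusted threshold.

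Markers of several cell types also differed between the genotypes, and their part in the result was not tested. At 5, 10 and 50 weeks the median difference was −0.44, −1.42 and −1.25 for parietal and −0.45, −1.34 and −1.48 for chief cell markers. For gland mucous markers it was 1.29, 0.96 and 0.75, and for surface mucous markers 0.04, 0.03 and −0.47. Summed levels are given as the sum over a list of signals divided by the 75th percentile of the array. Of 8 parietal cell markers, 6 were lower in null mucosa at all 3 ages, and their sum ranged from 291 to 694 in null and from 556 to 816 in wild-type mucosa. All 6 chief cell markers were lower at all 3 ages (sum 418 to 1078 in null and 1046 to 1596 in wild-type mucosa). One of them, Cpb1, changed by −8.43 between 5 and 10 weeks over both genotypes. The median change was −0.34 for chief cell markers and −8.41 for the pancreatic acinar markers described below. Whether Cpb1 read chief cells or pancreas was not tested. Of 5 gland mucous cell markers 4 were higher at all 3 ages (sum 1133 to 1747 in null and 435 to 990 in wild-type mucosa), and the sum of 5 surface mucous markers was 2194 to 3159 in null and 2568 to 3129 in wild-type mucosa. Among all 17860 tested genes, 4668 were higher and 4668 lower at all 3 ages. Well above background on all 6 arrays were 7 of the 8 parietal, 5 of the 6 chief and all of the gland and surface mucous markers.

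Markers of blood and immune cells and of tissues outside the gland were also read. Jchain, which encodes the joining chain of secreted antibodies, read −4.31, −2.31 and −0.81 in null mucosa and −5.17, −3.24 and −1.27 in wild-type mucosa (0.75 ± 0.15, adjusted p = 0.142 in limma). It was higher in null mucosa at each age and on older arrays in both genotypes. The B cell marker Cd79b took another course. It read −3.27, −3.37 and −3.71 in null and −2.49, −4.42 and −4.18 in wild-type mucosa (0.25 ± 0.39). Cd79b was thus lower in the null mouse of 5 weeks, and below its 5-week level on the older arrays of both genotypes. The part of these 2 genes in the result was not tested. For 6 T cell markers the sum was 7.97 to 15.04 in null and 10.5 to 14.97 in wild-type mucosa, with Cd3d and Cd8a below background, and for 6 myeloid markers 19.6 to 29.5 in null and 20.4 to 28.8 in wild-type mucosa, with Cd68 below background. Other tissues varied from mouse to mouse. Smooth muscle markers summed to 37.6, 44.8 and 14.3 in null mucosa at 5, 10 and 50 weeks. In wild-type mucosa they summed to 11.2, 33.7 and 51.6. Pancreatic acinar markers summed to 351, 12.8 and 68.3 in null and 424, 87.9 and 354 in wild-type mucosa. They were thus high on both 5-week arrays and lower on both 10-week arrays. Liver markers summed to 26.8, 11.4 and 8.79 in null and 28.4, 67.5 and 20.8 in wild-type mucosa, furthest apart at 10 weeks. The part of these tissues in the age and genotype differences was not tested. Erythroid markers summed to 3.52 to 61.8 in null and 4.59 to 16.2 in wild-type mucosa, and markers of the squamous forestomach to 7.0 to 8.13 in null and 9.45 to 11.4 in wild-type mucosa. The forestomach sum hides a wide difference in Krt5. It read −3.93, −3.99 and −3.43 in null and −3.8, 0.4 and 1.08 in wild-type mucosa (−3.01 ± 1.01). The other tested markers of that list, Trp63 and Krt13, differed by −0.33 ± 0.12 and 0.10 ± 0.24. The part of these cells was not tested either.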

How the data were processed

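Per the file headers, Agilent Feature Extraction 10.7.1.1 wrote the processed signal, a background-subtracted intensity, for 43020 spots that are not controls on each of 6 arrays. A deposited series table holds log2 values. Subtracting the log2 processed signal from it left 1 constant per array (−7.88 to −8.54) for 100% of 39399 probes within 0.001, and it served as an alternative only. Its column medians are −3.56 to −3.89, and the origin of its constants is not given in the sources used here.

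Here each array's 75th percentile (252.8 to 402.8 units) was subtracted on the log2 scale, outlier spots (98 to 144 per array) were dropped, and no spot was saturated (0). Between 54.8% and 59.2% of spots were well above background, and replicate spots had a median log2 SD of 0.0622 to 0.0718. RefSeq names were matched through the accession for 26044 probes, the symbol for 3194 and a synonym for 930; for 9231 the array's own name was kept. The probe with the highest mean stood for its gene.

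Genes well above background on at least 3 arrays (17860) entered a linear model of genotype and age as factors (limma 3.58.1, R 4.3.3), which had 2 residual and 2.12 prior degrees of freedom. P-values were adjusted by Benjamini and Hochberg, with a threshold of 0.05. The fit was run on data simulated with independent errors and no slide effect, which cannot speak to the shared slide of each genotype. Members and lists were chosen with earlier results of these data known. Values on all arrays are given for up to 3 members per role with the largest moderated t, for members opposite to the median and for those whose probes disagree, and from other lists up to 4 genes. Nothing says that the mice were litter mates. The p-values of genotype and age rest on how the null-minus-wild-type difference varies over the 3 ages. That spread includes any change of the genotype difference with age. It holds no spread between mice of the same genotype and age. Alternatives covered background, scaling, filter, probe choice, age block, variance trend, each age left out and, chosen after seeing the data, centring on reference genes. The summed level of 1 list of cell markers is not reported here.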

Additional observations from a re-analysis of the deposited data

Results flagged for a closer look

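At the level of single members, 8 differed in sign at one age from the other 2 ages. The difference between ages was not tested, since each age has 1 mouse per genotype. At 5 weeks the null mouse was the lower one for Mcm7 (−0.0822 on the log2 scale), Tyms (−0.487), Rpa2 (−0.235), E2f1 (−0.152), Chaf1b (−0.164) and Slbp (−0.169), and higher at both later ages. At 50 weeks it was the lower one for Cdc6 (−0.15) and Cdt1 (−0.000864), and higher at both earlier ages. The value of Mcm7 is near the median log2 SD between replicate spots of a probe on one array, 0.0622 to 0.0718, and that of Cdt1 is far below it. The second probe of Cdc6 had its negative value at 5 weeks (−0.14) and not at 50 weeks (0.07), and the second probe of Slbp read 0.03 at 5 weeks.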

How the results depend on the processing

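Members called for genotype or age stayed at 0 under each alternative run, with a smallest adjusted genotype p of 0.0787. Over 14 alternatives 7 of 546 member values changed sign. With the variance trend, the changed filters or no age block a member's mean difference stays the same, so its sign could not change. The deposited table could only shift all members by the same amount. Tyms was 0.101 with quantile normalization, 0.114 with median centring, and −0.223 to 0.176 when each pair of one age was left out. Cdc6 was −0.043 with reference gene centring and −0.021 to 0.309 over pairs left out, Rpa2 −0.088 to 0.435 and E2f1 −0.018 to 0.654. The median of the members lay between 0.259 (reference gene centring) and 0.680 (without the 50-week pair). It stayed below that of the mitosis genes by −0.494 to −0.954. The 16 members at an unadjusted genotype p under 0.05 became 27 with median centring, 3 with no age block, 4 with reference gene centring and 3 to 14 over pairs left out. The fit with no age block is the fit without the pairing. The 31 members higher at all 3 ages became 18 with reference gene centring. At 2-fold, the 2 members at 5 weeks became 1 with normexp, 5 with spike-in centring and 0 with reference gene centring, and the 14 at 10 weeks became 8 with the last. Over all genes, the genotype calls (0) became 6 with normexp (4 higher, 2 lower), 1 with quantile normalization, 2 with spike-in centring, 6 with no age block and 41 with a variance trend (28 higher, 13 lower). The age calls (2) became 6 with normexp, 5 with spike-in centring, 5 with a variance trend, and 0 with the filter set to all 6 arrays or dropped. The causes were not tested. A block for slide could not be fitted, because each slide holds 1 genotype. No paired analysis by replicate number was possible because the labels number no replicates and pairs are formed by age alone. Dim probes such as Tyms, Pola2 and Ccne2 limit what can be read.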
